A study of Mus musculus with 20 samples.

Results

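Zygotes of B6CASTF1 mice in G2, after DNA replication and before the first cleavage division, were compared with B6CASTF1 zygotes in G1, before replication. Both groups were wild-type, untreated embryos of an F1 hybrid, with 3 samples each, which makes 6 of the 20 samples of the series. Every one of the 24411 gene symbols in the authors' deposited table of this comparison was considered, and most weight is given to those whose mean normalized count reached 100. Oocytes held in meiotic arrest by dbcAMP were released, matured in vitro and then fertilized in vitro. Each sample was a batch of 10 to 15 embryos, whose poly(A) RNA was copied by oligo-dT-primed Smart-seq2, a method for small amounts of RNA. The series holds the same stages and MII eggs of the inbred strain C57BL/6J, and 2-cell embryos of both strains. Its title names genome activation and the nuclear receptor Nr5a2. The sources used here do not state the direction of the hybrid cross.

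A zygote starts with RNA and protein stored by the growing oocyte. During the 1-cell stage some stored transcripts are degraded, others gain or lose poly(A) tail, and both pronuclei begin a low level of transcription called minor genome activation. Because the libraries start from poly(A) tails, a transcript that gains or loses its tail can change its count without any change in its number of molecules.

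The files hold 1 fold change, SE and p-value per gene and no value per sample, so the depth of each library is unknown and the spread between single samples cannot be shown. The level given below for a gene in a group is its approximate mean normalized count, derived from the authors' mean over all 8 B6CASTF1 samples and their fold changes. Levels are not divided by transcript length and are compared only within a gene. A gene is said to rise or fall where the adjusted p in the authors' table lies below 0.05. No label ties a sample to a female or a day, so p-values reflect the spread between batches of embryos only, which may be technical. In bulk samples a change in RNA content per embryo and a change in the number of embryos cannot be told apart, and every change is relative to the authors' scaling of the libraries.

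The samples carried the transcripts of eggs and zygotes. All 12 listed oocyte and zygote marker genes were tested, and their levels ran between 1015 and 53932 in G2 zygotes and between 2539 and 206243 in G1 zygotes. Of 12 cumulus and granulosa cell markers 6 passed the authors' filter on low means, with a summed level over all 12 of 1448 in G2 zygotes and 2312 in G1 zygotes. Most of that sum was Cyp19a1, the aromatase gene, at 1338 in G2 zygotes and 2122 in G1 zygotes. Ptgs2, a prostaglandin synthase of cumulus cells, was the 1 member that fell, and stood near 0 in G2 zygotes, against 43.5 in G1 zygotes. Sperm and testis markers (3 of 10 tested) summed to 146 in G2 zygotes and 91.9 in G1 zygotes, and blood and oviduct markers (4 of 7 tested) to 144 in G2 zygotes and 91.6 in G1 zygotes, and 0 members of either list rose or fell by the authors' DESeq2 test (0 at an unadjusted p under 0.05). The part of other cell types in the results below was not tested.

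Of 14668 genes tested, 1413 rose and 1413 fell in G2 zygotes, which is 9.63% of the tested genes in each direction and 19.3% in either. Of the 9480 genes whose mean count reached 100, 1234 rose (13%) and 1320 fell (13.9%), together 26.9%. The genes that rose changed further than those that fell: in the authors' deposited table the median log2 fold change was 1.45 for all risen genes and -1.04 for all fallen ones. Of the risen genes 74.5% had a log2 fold change of at least 1, and of the fallen genes 51.8% had one of -1 or lower. The median over all tested genes was 0.00, and -0.06 at a mean count of at least 100.

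Direction varied with abundance. Of the 314 genes with a mean count over 10000, 108 fell (34.4%) and 49 rose (15.6%). Between 1000 and 10000, 22.9% fell and 18.2% rose, whereas between 100 and 1000, 7.91% fell and 10.1% rose. Genes that fell, at a mean count of at least 100, held 23.8% of the summed level in G2 zygotes, against 38.5% in G1 zygotes. Genes that rose held 22.1% in G2 zygotes, against 8.37% in G1 zygotes, and genes that did not pass the test held 53.2% in G2 zygotes and 52.4% in G1 zygotes. These shares come from the same values that made the calls and describe how much of the measured RNA the called genes carried. The log2 fold changes in the authors' deposited table had a median SE of 0.35 at a mean count of at least 100, and 0.17 and 0.82 at the 10th and 90th percentile of those genes. A total of 130 risen and 80 fallen genes had a level under 1 in a stage, where a fold has no meaning.

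**Figure D1:**
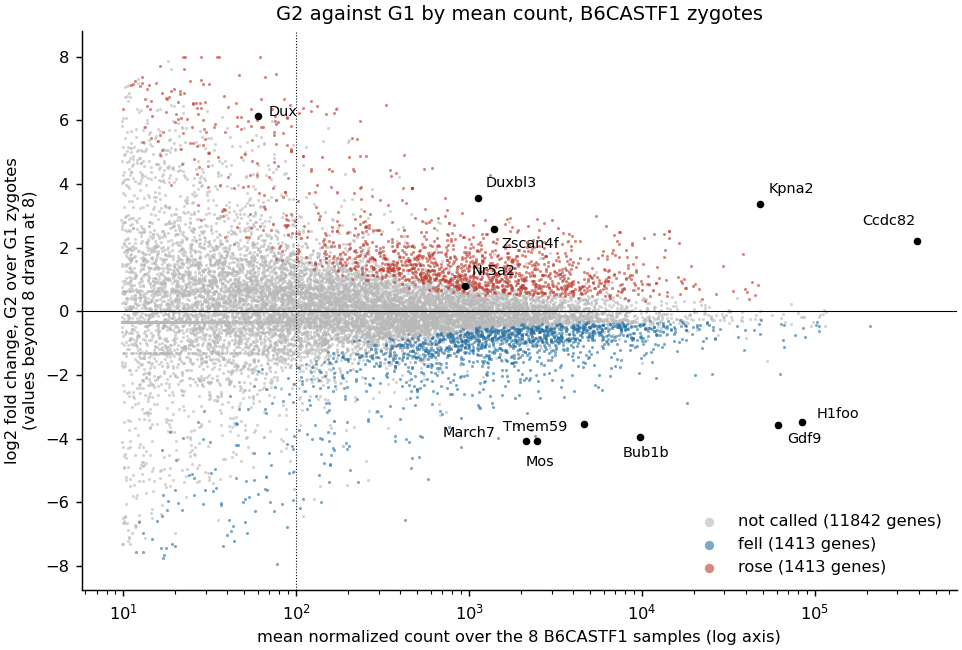
Each point is 1 of the 14668 tested genes, with its mean normalized count over the 8 B6CASTF1 samples on the x axis (log axis) and the authors' log2 fold change, G2 over G1 zygotes, on the y axis. The 1413 risen genes spread over low, middle and high counts. At counts over 10000 fallen genes (108) outnumber risen ones (49), and there H1foo and Gdf9 stand far below 0 and Kpna2 and Ccdc82 above it. The dotted line marks a mean count of 100.

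Kpna2 had the smallest p-value of all genes that rose. It encodes importin alpha-1, an adaptor that carries proteins with a nuclear localization signal into the nucleus, and lies at chr11:106988629-106999541, minus strand (GRCm38). Its level was 49072 in G2 zygotes, against 4730.5 in G1 zygotes (log2 fold change 3.37 with SE 0.12 and adjusted p of 2.1e-183 in the authors' deposited table). Ccdc82, a coiled-coil gene, reached 770573 in G2 zygotes, against 168646 in G1 zygotes (log2 fold change 2.19 with SE 0.14 and adjusted p of 6.9e-56 in the authors' deposited table). Uck2, which encodes a uridine-cytidine kinase of the pyrimidine salvage pathway, rose 6.77-fold, to 2577 in G2 zygotes, against 381 in G1 zygotes. Utp23, a factor of 18S rRNA processing, rose 4.96-fold, Frg1 7.23-fold and Tlcd2 4.91-fold, and these 6 had the smallest p of the risen genes under the rule for naming genes, which leaves out predicted genes.

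The 12 highest fold changes, among named genes whose mean count reached 100 and a level of at least 10 in both stages, also took in Timm17a, a subunit of the mitochondrial inner membrane translocase. Its level was 2717 in G2 zygotes, against 339.9 in G1 zygotes (7.99-fold higher, SE 0.26 on the log2 scale and adjusted p 2.9e-29 in the authors' deposited table). Haus1, a subunit of the augmin complex that branches spindle microtubules, stood at 390.2 in G2 zygotes, against 38.5 in G1 zygotes. Id2, an inhibitor of basic helix-loop-helix transcription factors, and Gadd45g, a stress-response gene, rose 11.7-fold and 7.6-fold, on low levels of 25.4 and 21.7 in G1 zygotes. The vomeronasal receptor gene Vmn1r139 (13.4-fold), Smim8 (13.1-fold), the thioredoxin-like Txndc12 (11.1-fold), the neuropeptide gene Nmu (8.53-fold) and the ubiquitin ligase gene Hecw2 (8.34-fold) were the others besides Kpna2 and a pair of Duxbl genes described below. Their SE on the log2 scale lay between 0.12 for Kpna2 and 1.10 for Id2 in the authors' deposited table.

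Tmem59 had the smallest p-value of the genes that fell. It encodes a membrane protein of the Golgi and endosomes, and its level was 557 in G2 zygotes, against 6508 in G1 zygotes (log2 fold change -3.55 with SE 0.13 and adjusted p of 1.2e-153 in the authors' deposited table). Saraf, the inactivation factor of store-operated calcium entry, had 377 in G2 zygotes, against 5761 in G1 zygotes (log2 fold change -3.93 with SE 0.23 and adjusted p of 8.8e-63 in the authors' deposited table). March7, a membrane-associated ubiquitin ligase, fell 16.9-fold. Snora47, listed as a small nucleolar RNA of the H/ACA class, had the lowest log2 fold change under the rule for naming genes (-4.91 in the authors' deposited table), at 39.3 in G2 zygotes and 1182 in G1 zygotes. The centriole-associated Cep44 stood at 52 in G2 zygotes and 1253 in G1 zygotes. Others among the lowest were Mos and Bub1b, described below, Abhd17a (16.2-fold lower), Fam69b (16.3-fold lower), the sarcoglycan gene Sgcb (16-fold lower), the interleukin-1 receptor subunit gene Il1rap (15.5-fold lower) and Fam132a (15.2-fold lower).

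**Figure D2:**
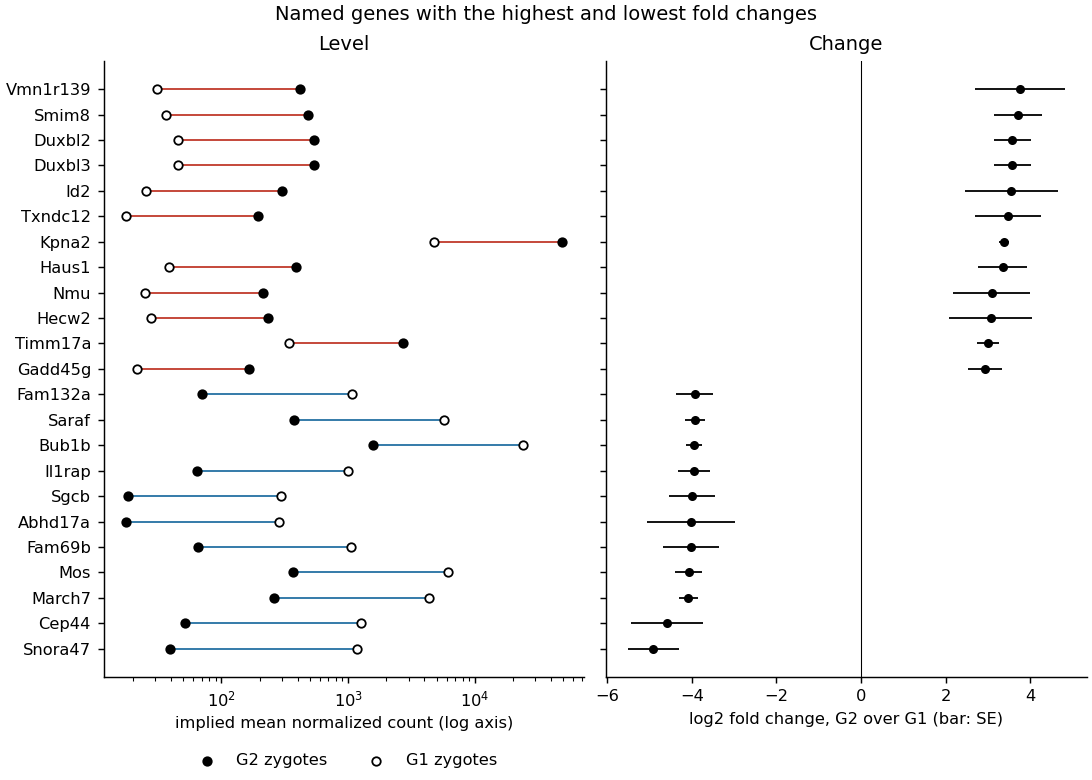
Left, the approximate mean normalized count (log axis) of the 12 genes with the highest log2 fold change and 11 of those with the lowest in G2 zygotes (filled) and G1 zygotes (open). Right, their log2 fold change, G2 over G1, with the authors' SE as bars. Kpna2, Bub1b, March7 and Saraf have short bars, and Vmn1r139, Id2 and Abhd17a bars of about 1.

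Genes for the secreted signals and coat of the oocyte fell more often than they rose: 6 of 14 fell and 3 rose, with a median log2 fold change of -0.21. Gdf9, an oocyte growth factor that acts on surrounding granulosa cells (chr11:53431023-53437904, plus strand), fell 11.8-fold, to 12579 in G2 zygotes, against 149021 in G1 zygotes (log2 fold change -3.57 with SE 0.17 and adjusted p of 1.3e-89 in the authors' deposited table). Astl, the cortical granule protease ovastacin that cleaves the zona pellucida after fertilization, had 175 in G2 zygotes, against 1634 in G1 zygotes (log2 fold change -3.22 with SE 0.37 and adjusted p of 3.7e-16 in the authors' deposited table). Zp1 and Zp3, glycoproteins of the zona pellucida, fell 2.5-fold and 2.53-fold. Among the 5 listed growth factor genes Gdf9 was the only one that passed the test. The 3 risen members were listed under egg surface and cortical granule proteins and are named after their values were seen. They were Cd9, needed for sperm-egg fusion, Izumo1r, the egg receptor of sperm Izumo1, and Oosp2. Their log2 fold changes were 1.22, 0.99 and 0.70 in the authors' deposited table.

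H1foo, the oocyte-specific linker histone (chr6:115944938-115950236, plus strand), fell 11.2-fold, to 18493 in G2 zygotes, against 206243 in G1 zygotes (log2 fold change -3.48 with SE 0.22 and adjusted p of 9.2e-52 in the authors' deposited table). Zar1, a maternal RNA-binding protein that keeps stored transcripts stable, fell 5.23-fold, while its paralogue Zar1l rose 2.98-fold, to 4128 in G2 zygotes, against 1387 in G1 zygotes. Across the 12 oocyte and zygote markers 7 fell and 2 rose. The subcortical maternal complex, a protein lattice under the egg surface that early cleavage needs, was mixed, with 3 of 16 tested members risen and 3 fallen. Ooep rose 2.41-fold and Nlrp9b 2.1-fold, whereas Nlrp2 fell 2.14-fold and Padi6 1.5-fold. The Nlrp genes form a family of similar sequence, so reads may have been split between its members.

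Among 15 oocyte transcription factors 2 rose and 1 fell. Nobox, a homeobox gene of the growing oocyte, had 3084 in G2 zygotes, against 1478 in G1 zygotes (log2 fold change 1.06 with SE 0.28 and adjusted p of 0.002 in the authors' deposited table). Zfp57, a zinc finger protein that protects imprinted methylation, rose 2.11-fold, to 28816 in G2 zygotes, against 13679 in G1 zygotes. Obox2, of the oocyte-specific homeobox cluster, fell 1.55-fold. Obox5 had 100432 in G2 zygotes and 112861 in G1 zygotes and did not pass the test (log2 fold change -0.17 with SE 0.15 and adjusted p of 0.51 in the authors' deposited table). The Obox genes are near-identical copies in part, and their reads can be split between copies.

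The cytostatic factor genes fell. Mos, the kinase that holds eggs in metaphase II (chr4:3870657-3872105, minus strand), had 369 in G2 zygotes, against 6179.8 in G1 zygotes (log2 fold change -4.07 with SE 0.32 and adjusted p of 3e-35 in the authors' deposited table). Fbxo43, which encodes the APC/C inhibitor Emi2 and is named after its values were seen, had 1943 in G2 zygotes, against 2788 in G1 zygotes (log2 fold change -0.52 and adjusted p of 0.022 in the authors' deposited table). In the whole list of meiotic exit and M-phase kinases 6 of 27 rose and 5 fell. Ensa, an inhibitor of the phosphatase PP2A-B55, rose 3.35-fold, Ccna2, the S- and M-phase cyclin A2, fell 1.69-fold, and Aurkc, a germ-cell Aurora kinase, fell 1.92-fold. Ccnb1, cyclin B1, stood at 84755 in G2 zygotes and 92831 in G1 zygotes, and neither it nor the mitotic kinase gene Plk1 (2729.6 in G2 zygotes and 2971 in G1 zygotes) nor the CDK phosphatase gene Cdc25a (745 in G2 zygotes and 683 in G1 zygotes) passed the test. Cdk1 itself, named after its values were seen, rose, at 2673 in G2 zygotes and 1276 in G1 zygotes.

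Spindle checkpoint genes moved in both directions, and 4 of 10 rose and 3 fell. Bub1b, which encodes the checkpoint kinase BubR1 (chr2:118598211-118641591, plus strand), fell 15.5-fold, to 1560.4 in G2 zygotes, against 24131 in G1 zygotes (log2 fold change -3.95 with SE 0.19 and adjusted p of 2.8e-94 in the authors' deposited table). Its binding partner Bub3 rose 2.08-fold, to 10498 in G2 zygotes, against 5057 in G1 zygotes (log2 fold change 1.05 with SE 0.14 and adjusted p of 1.1e-12 in the authors' deposited table). Spdl1, the kinetochore dynein adaptor Spindly, fell 2.31-fold, and Birc5, the chromosome passenger protein survivin, rose 2.06-fold. Of 17 genes for the anaphase-promoting complex and its activators 1 rose and 3 fell, with a median log2 fold change of -0.10.

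The genes of minor genome activation and the 2-cell stage rose where they passed the test: 10 of 37 tested members rose and 0 fell by the authors' DESeq2 test, with a median log2 fold change of 0.81, when Duxbl2 and Duxbl3, whose values are identical, are counted once (11 of 38 symbols). At an unadjusted p under 0.05 the counts were 15 higher and 2 lower. Dux, a homeobox factor that switches on 2-cell genes, had 147 in G2 zygotes, against 2.08 in G1 zygotes (log2 fold change 6.15 with SE 1.51 and adjusted p of 0.00062 in the authors' deposited table). The G1 level is close to 1, so the fold of 70.9 carries the wide error of that SE. Duxbl2 and Duxbl3, a pair of Dux-like copies, stood at 45.5 in G1 zygotes, 539.8 in G2 zygotes and 3625 in 2-cell embryos (log2 fold change 3.57 with SE 0.44 and adjusted p of 3.3e-14 for G2 over G1 zygotes in the authors' deposited table). Reads of the whole Dux family can be split between near-identical copies.

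Zscan4d, of a gene cluster known as a marker of 2-cell embryos, had 196 in G1 zygotes, 676 in G2 zygotes and 2523 in 2-cell embryos (log2 fold change 1.79 with SE 0.48 and adjusted p of 0.0023 for G2 over G1 in the authors' deposited table). Zscan4f and Zscan4c, named after their values were seen, had log2 fold changes of 2.57 and 1.75 in the authors' deposited table, and the Zscan4 copies share reads. Arg2, mitochondrial arginase, rose 4.57-fold, at 2099 in G1 zygotes, 9592 in G2 zygotes and 11144 in 2-cell embryos. Gm6763, a predicted gene, had 5.14, 75.7 and 1759.7 in the same order of stages. Zfp352, a zinc finger gene with a high level in 2-cell embryos (6537), had 45.3 in G2 zygotes and 24.4 in G1 zygotes and did not pass the test (log2 fold change 0.89 and adjusted p of 0.67 in the authors' deposited table).

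Of 37 candidate activation factors 7 rose and 4 fell. Dppa2 and Dppa4, chromatin factors that act upstream of Dux in embryonic stem cells, both rose. Dppa2 had 818 in G1 zygotes, 2063 in G2 zygotes and 19754 in 2-cell embryos (log2 fold change 1.33 with SE 0.20 and adjusted p of 5.3e-10 for G2 over G1 in the authors' deposited table). Dppa4 had 54.1, 284 and 26955 at these stages (log2 fold change 2.39 with SE 0.34 and adjusted p of 4.9e-11 for G2 over G1 in the authors' deposited table). Max, the dimerization partner of Myc, rose 3.15-fold, to 1136 in G2 zygotes, against 360.1 in G1 zygotes. Sall4, a zinc finger factor of pluripotent cells, fell 3.07-fold. Nr5a2, the orphan nuclear receptor named in the title (chr1:136842571-136960448, minus strand), had 107 in G1 zygotes, 187 in G2 zygotes and 3341 in 2-cell embryos. Its G2 over G1 difference did not pass the test (log2 fold change 0.80 with SE 0.51 and adjusted p of 0.3 in the authors' deposited table). Of 20 regulators of the first lineages 0 rose and 3 fell by the authors' DESeq2 test, beside 9.63% of all tested genes in each direction. At an unadjusted p under 0.05 the counts were the same. The median SE of these 20 was 1.12, and 11 of them reached a mean count of 100, so a rise may have been missed. The fallen ones were Cdh1, E-cadherin (3.12-fold), the Hippo pathway gene Nf2 (2.64-fold) and Lats2, a Hippo kinase gene near 0 in G2 zygotes, against 16.4 in G1 zygotes. In C57BL/6J 4 of 18 tested members rose and 1 fell, with a median log2 fold change of 1.01.

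Among mRNA decay genes 15 of 55 fell and 9 rose, with a median log2 fold change of -0.22. Within CCR4-NOT, the main deadenylase complex, the scaffold gene Cnot1 rose 2.61-fold, to 1194 in G2 zygotes, against 457 in G1 zygotes (log2 fold change 1.38 with SE 0.19 and adjusted p of 3e-11 in the authors' deposited table). The catalytic subunit gene Cnot8 fell 1.93-fold, to 2709.6 in G2 zygotes, against 5223 in G1 zygotes. Btg4, the adaptor that brings CCR4-NOT to maternal transcripts, had 105262 in G2 zygotes and 145846 in G1 zygotes and did not pass the test (log2 fold change -0.47 with SE 0.19 and adjusted p of 0.071 in the authors' deposited table). Lsm3, a subunit of the Lsm ring, rose 2.32-fold, and the exonuclease gene Xrn2 fell 1.68-fold. Of 16 uridylation and exonuclease genes 0 rose and 5 fell by the authors' DESeq2 test (0 higher and 6 lower at an unadjusted p under 0.05).

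Genes for poly(A) and cap binding rose or did not pass the test: 4 of 10 rose and 0 fell by the authors' DESeq2 test (4 higher and 1 lower at an unadjusted p under 0.05). Eif4e, the cap-binding initiation factor, rose 1.88-fold, to 19879 in G2 zygotes, against 10551 in G1 zygotes (log2 fold change 0.91 with SE 0.11 and adjusted p of 7.4e-14 in the authors' deposited table). Papola, nuclear poly(A) polymerase alpha, fell 2.3-fold. The remaining storage and polyadenylation genes went both ways, which brings the whole list to 8 risen and 5 fallen of 41.

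Ribosomal protein genes rose more often than they fell, with 25 of 77 risen, 6 fallen and a median log2 fold change of 0.47. Rps24, of the small subunit, had 674 in G2 zygotes, against 135 in G1 zygotes (log2 fold change 2.32 with SE 0.22 and adjusted p of 3.4e-23 in the authors' deposited table). Rpl17 and Rpl19, of the large subunit, rose 3.31-fold and 3.18-fold, and Rps6, the substrate of S6 kinase, rose 3.1-fold. The largest fall among those that passed the test, picked after the values were seen, was that of Rps3, a small-subunit protein with a role in DNA repair, at 31 in G2 zygotes and 94.4 in G1 zygotes. Summed levels of the tested large-subunit genes were 21925 in G2 zygotes and 15668 in G1 zygotes, and those of the small subunit 13787 in G2 zygotes and 12689.5 in G1 zygotes. Ribosomal protein genes have many processed pseudogene copies, with which reads can be shared.

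Translation factors had 14 of 45 genes risen and 8 fallen, with a median log2 fold change of 0.00. Eif3m, a subunit of initiation factor eIF3, rose 3.53-fold, Eef1a1, the elongation factor that delivers tRNA, 2.52-fold and Eef1e1, of the tRNA synthetase complex, 2.33-fold, whereas Eif5b, which joins the ribosomal subunits, fell 2.06-fold. In ribosome biogenesis 9 of 45 rose and 3 fell. Nhp2, a protein of H/ACA particles, had 127 in G1 zygotes, 474 in G2 zygotes and 22891 in 2-cell embryos. Rrn3, which recruits RNA polymerase I, rose 2.93-fold, the polymerase I subunit gene Znrd1 3.74-fold and Rrp9, of the U3 particle, 2.13-fold.

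Proteasome genes were split by direction, 11 of 32 risen and 6 fallen. The members with the smallest p were Psmc1, Psmc2 and Psmc5, of the ATPase ring of the regulatory particle, and Psmd3, of its lid. Psmc1 had 1915 in G2 zygotes, against 530.4 in G1 zygotes (log2 fold change 1.85 with SE 0.18 and adjusted p of 1.1e-23 in the authors' deposited table), Psmc5 rose 3.34-fold and Psmc2 3.09-fold. Psmd3 fell 3.29-fold. Among 76 genes of oxidative phosphorylation 14 rose and 4 fell, with a median log2 fold change of 0.09. Atp5j2, an ATP synthase subunit, rose 3.85-fold, Sdhd, the membrane anchor of complex II, 3.23-fold and Ndufb11 of complex I 2.17-fold, while Atp5b, the catalytic beta subunit, fell 1.49-fold. No symbol carried the prefix of the mitochondrial genome, and mitochondrially encoded subunits were not analysed here.

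**Figure D3:**
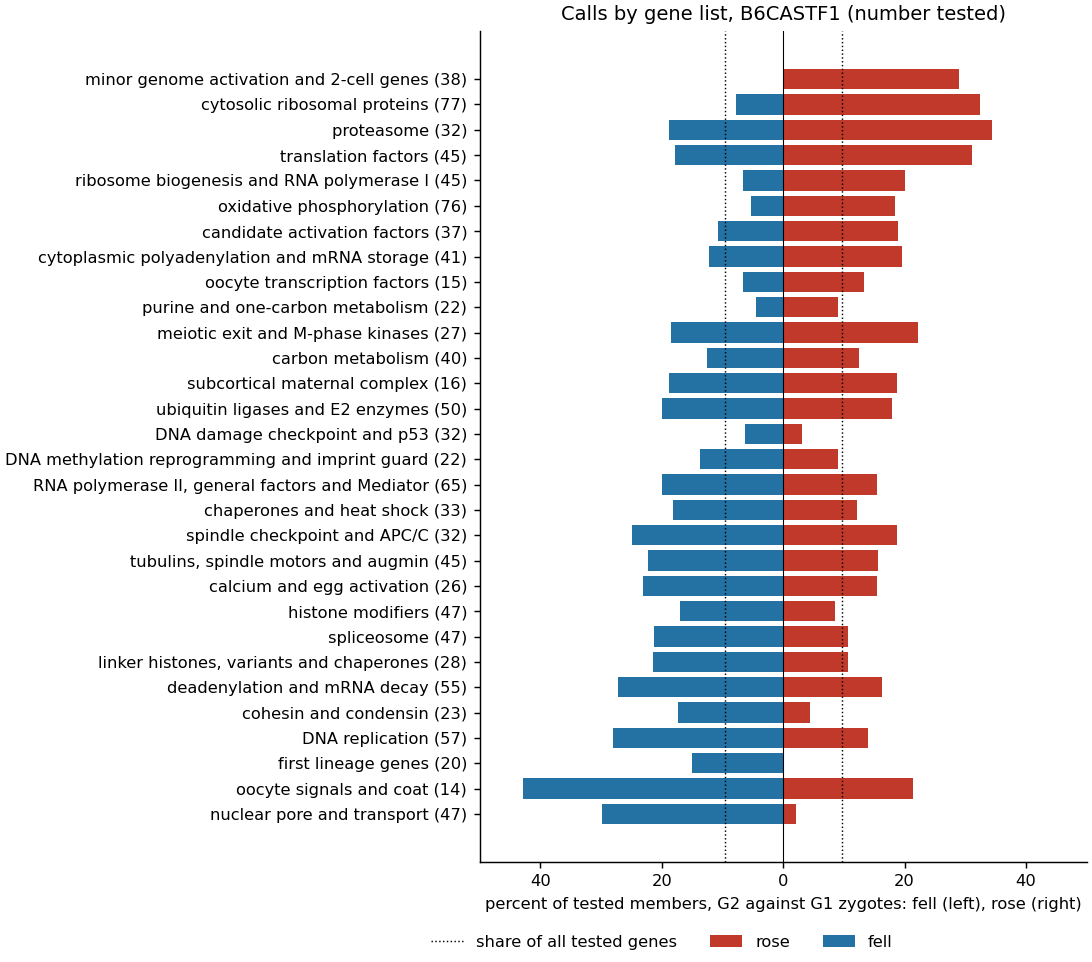
Bars give the percent of tested members that fell (left) or rose (right) in G2 against G1 zygotes for each of 30 gene lists, with the number tested in brackets. Dotted lines mark 9.63%, the share of all tested genes in each direction. Lists at the top have more risen than fallen members, such as the 2-cell genes (11 of 38 symbols risen, with Duxbl2 and Duxbl3 drawn separately), and lists at the bottom more fallen ones, such as nuclear pore and transport (14 of 47 fallen).

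Nuclear pore genes fell or did not pass the test. Of 25 nucleoporins 12 fell and 0 rose by the authors' DESeq2 test (13 lower and 0 higher at an unadjusted p under 0.05), with a median log2 fold change of -0.42. Nup35, of the inner ring, had 12154 in G2 zygotes, against 20013 in G1 zygotes (log2 fold change -0.72 with SE 0.11 and adjusted p of 2e-09 in the authors' deposited table). Nup85, of the outer ring, fell 2.04-fold, and Tpr, of the nuclear basket, 1.68-fold. Summed over the nucleoporins, the level was 74153 in G2 zygotes and 105656 in G1 zygotes. Importins and Ran genes had a median of 0.14, and of 22 tested Kpna2 was the 1 that rose and 2 fell. Their summed level was 81498 in G2 zygotes and 36556 in G1 zygotes, of which Kpna2 alone held 49072 in G2 zygotes and 4730.5 in G1 zygotes.

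Of 65 genes for RNA polymerase II, its general factors and Mediator 13 fell and 10 rose. Mediator, the bridge between activators and the polymerase, had 7 of 26 fallen and 3 risen. Med20 had 254 in G2 zygotes, against 1594 in G1 zygotes (log2 fold change -2.65 with SE 0.25 and adjusted p of 2.2e-24 in the authors' deposited table), and Med11 fell 5.47-fold, whereas Med28 rose 2.07-fold. Supt4a, of the elongation factor DSIF, had 594 in G1 zygotes, 1402 in G2 zygotes and 26284 in 2-cell embryos. Spliceosome genes had 10 of 47 fallen and 5 risen. U2af1, which recognizes the 3' splice site, fell 3.91-fold, Sf3b5 2.41-fold, Snrpd3, an Sm core protein, 1.87-fold and Sf3b1, the branch point factor, 1.49-fold.

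Replication genes fell more often than they rose, 16 against 8 of 57, with a median log2 fold change of -0.23. The partners of the primase moved oppositely. Prim2, its large subunit, fell 6.65-fold, to 407 in G2 zygotes, against 2706 in G1 zygotes (log2 fold change -2.73 with SE 0.20 and adjusted p of 2e-40 in the authors' deposited table). Prim1, the catalytic subunit, rose 2.88-fold, to 606 in G2 zygotes, against 210.2 in G1 zygotes (log2 fold change 1.53 with SE 0.29 and adjusted p of 2.6e-06 in the authors' deposited table). Mcm4, of the replicative helicase, fell 2.07-fold, and Orc3, of the origin recognition complex, rose 3.49-fold.

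Cohesin and condensin genes had 4 of 23 fallen and 1 risen, with a median log2 fold change of -0.34. Smc3, a core cohesin ATPase, had 9222 in G1 zygotes, 1652 in G2 zygotes and 7054 in 2-cell embryos (log2 fold change -2.48 with SE 0.17 and adjusted p of 2.9e-46 for G2 over G1 in the authors' deposited table). Smc4, a core condensin ATPase, fell 2.42-fold, the condensin II gene Ncapg2 fell 1.55-fold, and Ncaph of condensin I rose 2.27-fold. In the DNA damage and p53 list 1 of 32 rose and 2 fell. Mdm2, the ubiquitin ligase of p53, fell 2.29-fold, Trp53bp1, a repair scaffold, fell 2-fold, and the mediator gene Mdc1 rose 2.88-fold. H2afx had 117 in G2 zygotes and 264 in G1 zygotes and did not pass the test (log2 fold change -1.17 and adjusted p of 0.058 in the authors' deposited table).

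Among DNA methylation factors 2 of 22 rose and 3 fell. Tet3, the dioxygenase that oxidizes methylcytosine in the paternal pronucleus, fell 2.06-fold, to 5199.5 in G2 zygotes, against 10722 in G1 zygotes (log2 fold change -1.04 with SE 0.24 and adjusted p of 0.00015 in the authors' deposited table). Trim28, the corepressor that Zfp57 recruits to imprinted regions, fell 5.14-fold, to 321 in G2 zygotes, against 1650.3 in G1 zygotes, while Zfp57 rose. Cbx5, heterochromatin protein 1 alpha, rose 2.75-fold. Dppa3, which shields the maternal genome from Tet3, had 100995 in G2 zygotes and 102535 in G1 zygotes and did not pass the test (log2 fold change -0.02 with SE 0.14 and adjusted p of 0.97 in the authors' deposited table).

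Histone modifiers had 8 of 47 fallen and 4 risen. Ezh2, the Polycomb methyltransferase of H3K27, fell 1.42-fold, its partner Jarid2 1.81-fold and the H3K27 demethylase gene Kdm6b 2.45-fold, whereas Suv39h1, an H3K9 methyltransferase, rose 1.71-fold. Of 12 Polycomb and H3K27 genes 0 rose and 3 fell by the authors' DESeq2 test (0 higher and 4 lower at an unadjusted p under 0.05). Besides H1foo, the histone list held H3f3a, which encodes variant histone H3.3 and rose 1.82-fold, the chaperone gene Asf1b (1.41-fold lower) and Cabin1 of the HIRA complex (1.87-fold lower).

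Spindle genes had 10 of 45 fallen and 7 risen. Within augmin, Haus1 rose as given above and Haus4 fell 3.1-fold, to 1572 in G2 zygotes, against 4875 in G1 zygotes (log2 fold change -1.63 with SE 0.17 and adjusted p of 7.2e-21 in the authors' deposited table). Tacc3, which stabilizes spindle microtubules, rose 3.29-fold, to 10494 in G2 zygotes, against 3185 in G1 zygotes, and the tubulin gene Tubb4b rose 1.8-fold. In calcium signalling and egg activation, 6 of 26 fell and 4 rose. Calm2, a calmodulin gene, had 1345 in G1 zygotes, 7229 in G2 zygotes and 40446 in 2-cell embryos (log2 fold change 2.43 with SE 0.18 and adjusted p of 2.1e-37 for G2 over G1 in the authors' deposited table). Orai1, the pore of store-operated calcium entry, rose 3.18-fold, while the plasma membrane calcium pump gene Atp2b1 fell 2.27-fold.

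Ubiquitin ligases and conjugating enzymes had 10 of 50 fallen and 9 risen. Of 23 E2 enzymes 5 rose and 2 fell, among them Ube2w, which attaches ubiquitin to protein N-termini (4.58-fold higher) and Ube2a (4.43-fold higher). Skp1a, the adaptor of SCF ligases, rose 2.7-fold, to 30301 in G2 zygotes, against 11207 in G1 zygotes (log2 fold change 1.43 with SE 0.14 and adjusted p of 8.2e-22 in the authors' deposited table). Chaperone genes had 6 of 33 fallen and 4 risen, with Cct3 of the chaperonin ring 1.79-fold and the HSP40 gene Dnaja1 1.6-fold higher, and Hsp90ab1 1.4-fold and mitochondrial Hspa9 1.65-fold lower. In carbon metabolism 5 of 40 rose and 5 fell. Tpi1, of glycolysis, rose 3.09-fold, Mdh2 and Dlst, of the tricarboxylic acid cycle, 2.19-fold and 2.28-fold, and Pdhb of pyruvate dehydrogenase, the entry point for the zygote's main fuel, fell 1.84-fold. Purine and one-carbon genes had 2 of 22 risen (Adss and Paics, of purine synthesis, 1.56-fold and 1.89-fold) and 1 fallen (Mthfd2, 1.43-fold), and Impdh2, which had 26494 in 2-cell embryos, had 107 in G2 zygotes and 56.3 in G1 zygotes and missed the threshold (log2 fold change 0.93 and adjusted p of 0.051 in the authors' deposited table).

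The lists were made of genes that are mostly well expressed, and more genes pass the test at higher counts, so their counts stand beside 13% risen and 13.9% fallen among genes whose mean count reached 100. Over members at that mean count, 29.4% of the 2-cell symbols rose and 0% fell, the ribosomal proteins had 32.5% risen and 7.79% fallen, and 50% of nucleoporins fell and 0% rose. The mean count includes the 2-cell samples, so genes of any list can reach 100 through that stage alone. Gm6763 had 1759.7 in 2-cell embryos, against 75.7 in G2 and 5.14 in G1 zygotes. Rpl19 had 20940.5 in 2-cell embryos, against 685 in G2 and 215 in G1 zygotes. Levels in the ribosomal protein list went down to 0.35 in G2 and 1.14 in G1 zygotes. The shares of 2-cell symbols and of ribosomal proteins are thus not shares of genes all well measured in zygotes. Many lists exceeded 13% risen and 13.9% fallen at once. Among them, 34.4% of proteasome genes rose and 18.8% fell, and 31.1% of translation factors rose and 17.8% fell. Of oocyte signals 42.9% fell and 21.4% rose, and of replication genes 29.6% fell and 14.8% rose. The checkpoint and APC/C list had 18.8% risen and 25% fallen, and the ubiquitin list 18.4% and 20.4%. Of all tested genes with a mean count between 1000 and 10000, 18.2% rose and 22.9% fell. No test of the lists against other genes was made.

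Transcripts of risen and fallen genes differed in their 3' ends. A cytoplasmic polyadenylation element (CPE) is a U-rich motif, bound by CPEB proteins in oocytes, that lies near the polyadenylation signal and takes part in the control of poly(A) tail length. It was searched for as TTTTAT or TTTTAAT on the transcript strand in the last 100 bases of the 3' UTR, in GENCODE M21 transcripts (GRCm38), for 8399 genes at or above a mean count of 100. The last such match is shown with its surroundings for the genes that carried it and had the smallest p, 6 that fell and 3 that rose, to let the 3' ends of both directions be compared. Letters are DNA, 5′ to 3′, with the motif in capitals. Gdf9, Bub1b and H1foo are the maternal genes described above.
Bub1b (fell, chr2:118641553-118641582, plus strand): tttcactgtgtaTTTTATaataaaatagtt
Gdf9 (fell, chr11:53437854-53437883, plus strand): agagtgctgtggTTTTATgtgacggaagaa
H1foo (fell, chr6:115950157-115950186, plus strand): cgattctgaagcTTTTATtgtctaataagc
Taldo1 (fell, chr7:141402910-141402939, plus strand): ataggattctgaTTTTATgtgaaattttgt
Rragc (fell, chr4:123936913-123936942, plus strand): aaggaaaaatgcTTTTATatttatagatta
Zswim3 (fell, chr2:164822079-164822108, plus strand): cctgttacgtatTTTTATtcacactaataa
Txndc9 (rose, chr1:37987410-37987439, minus strand): ttttgtgattgaTTTTATcataacgtgatt
Ube2w (rose, chr1:16569793-16569822, minus strand): gtgattaatgtaTTTTATaaattacctttt
Intu (rose, chr3:40704690-40704719, plus strand): aattatgaagagTTTTATttctgtatgtaa

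The windows lie in the 3' UTR, in the last exon of the longest coding transcript of each gene. That transcript ends 2205 bases before the annotated end of the gene for Txndc9 and 28992 bases before it for Ube2w, so these windows are not the most distal 3' end of the gene. The transcripts of the other genes end at the gene's end or within 2 bases of it. Among the 7525 genes whose transcript ends within 100 bases of the gene's end, the motif was in 12.2% of risen and 32.1% of fallen genes, a restriction added after the data were seen. Taldo1, transaldolase of the pentose phosphate pathway, had 2079 in G1 zygotes, 158 in G2 zygotes and 5707 in 2-cell embryos. Rragc, a Rag GTPase that signals amino acids to mTORC1, fell 3.37-fold, and Zswim3 4.46-fold. Txndc9 rose 5.36-fold, to 19412 in G2 zygotes, against 3623 in G1 zygotes, Ube2w 4.58-fold, and Intu, a ciliary planar polarity gene, 4.24-fold, so transcripts with the motif were found in both directions. The motif was present in 13.0% of risen genes (134 of 1030), in 32.2% of fallen genes (396 of 1231) and in 19.9% of genes that did not pass the test, against 20.9% of all 3' ends of that length. Genes with 2 or more copies fell in 28.1% and rose in 2.85% of cases, those with 1 copy fell in 21.5% and rose in 8.55%, and those with none fell in 12.6% and rose in 13.5%. In the same order the median T content of the 3' ends was 42%, 38% and 32%, and the median mean count 807, 774 and 606. The part of T content and abundance in these shares was not tested.

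The same letters read backwards (TATTTT or TAATTTT), gave nearly the same pattern, in 14.7% of risen genes, 29.8% of fallen genes and 21.7% of all. The motif and the A- and T-rich composition of these 3' ends cannot be told apart by this count, and a match in the letters is a description, not a shown site. In 3 equal groups of genes ordered by the T content of these 3' ends, the motif was present in 4.6% of risen and 12.3% of fallen genes in the lowest group, 11% of risen and 26.5% of fallen genes in the middle one, and 28.7% of risen and 48.6% of fallen genes in the highest. The reversed letters are not given by T content, so this split does not tell the motif from the composition either. These shares were not tested. The polyadenylation signal (AATAAA or ATTAAA) was found in 75.6% of risen and 88.5% of fallen genes, and the AU-rich element ATTTA in 20% of risen and 28.7% of fallen genes. The Pumilio site TGTANATA was found in 4.37% of risen and 5.77% of fallen genes. A risen gene had a median transcript length of 2367 bases, a fallen one 3050 and one that did not pass the test 3200, with median coding lengths of 1020, 1395 and 1392 bases. Whether the length of a transcript bears on its count in these libraries was not tested.

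**Figure D4:**
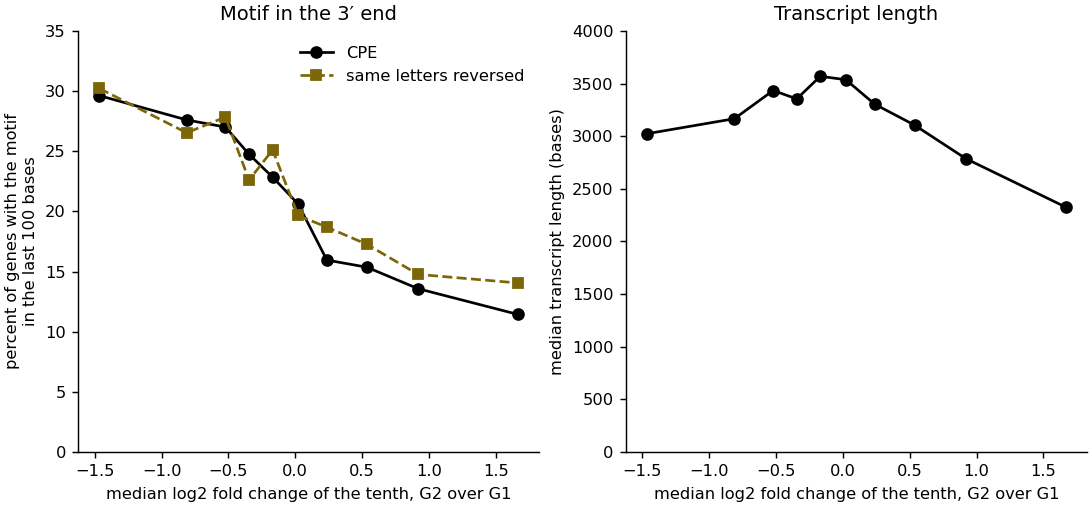
Genes whose mean count reached 100 were ordered by log2 fold change, G2 over G1, and cut into 10 equal groups placed at their median fold change. Left, the percent of each group with the CPE motif or with the same letters reversed in the last 100 bases: the CPE share is 29.6% in the lowest group and 11.4% in the highest, and the reversed letters run alongside at 30.2% and 14.0%. Right, the median transcript length, 3025.5 bases in the lowest group and 2327.5 in the highest.

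The same stages of C57BL/6J zygotes, 3 samples each and none shared with B6CASTF1, allowed each gene to be looked at in separate embryos. Of the 1413 genes that rose in B6CASTF1, 1303 were tested in C57BL/6J, and 285 rose there (21.9% of the B6CASTF1 list and 44.8% of the 636 risen in C57BL/6J), against 5.08% of all genes tested in both. Of the genes that fell, 1335 were tested, and 155 fell in C57BL/6J (11.6% of the B6CASTF1 list and 41.3% of the 375 fallen in C57BL/6J), against 3% of all. The C57BL/6J log2 fold change had the same sign in 85.0% of risen and 86.7% of fallen genes, with medians of 1.02 and -0.84 beside 0.08 for all genes tested in both strains. The authors' SE was larger in C57BL/6J, with a median of 0.78 there and 0.31 in B6CASTF1 for the risen genes, and a larger SE leaves fewer genes past the threshold at the same fold. Kpna2 had 22067 in G2 zygotes and 3693 in G1 zygotes of C57BL/6J, and Gdf9 had 2958 in G2 zygotes and 25963 in G1 zygotes. H1foo had 12981 in G2 zygotes and 102123 in G1 zygotes of that strain, and Bub1b 1325 in G2 zygotes and 12598 in G1 zygotes.

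Among genes with a level of at least 10 in all 4 groups, 1109 rose in B6CASTF1, of which 263 rose and 0 fell in C57BL/6J by the authors' DESeq2 test (428 higher and 4 lower at an unadjusted p under 0.05), and 87.3% had the same sign. Of 1205 that fell, 139 fell and 3 rose, and 90.1% had the same sign. In these sets the median log2 fold change was 1.27 in B6CASTF1 and 1.0 in C57BL/6J for the risen genes, and -0.93 and -0.85 for the fallen ones. Across all levels 19 genes had opposite calls, and 11 of them had a level under 1 in at least 1 group.

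**Figure D5:**
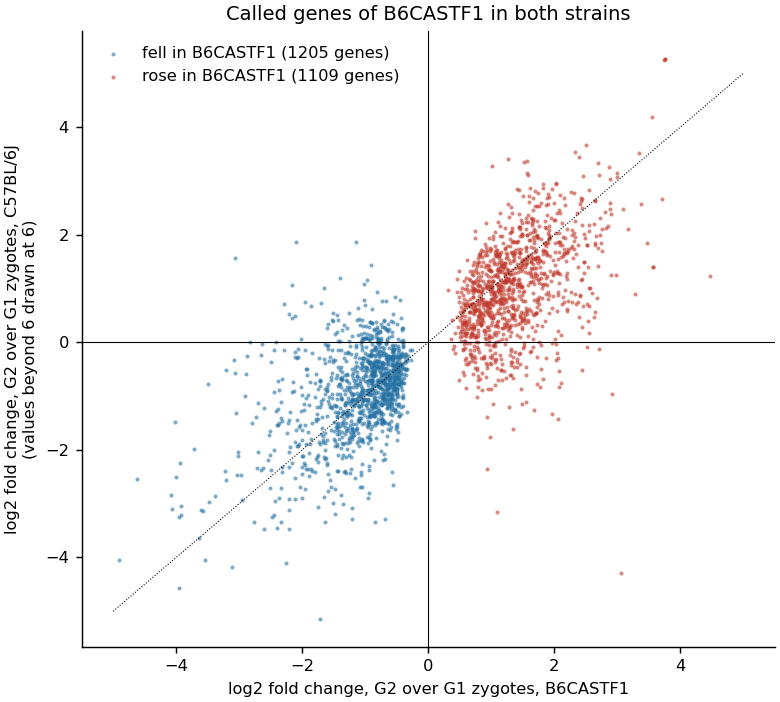
Each point is a gene called in B6CASTF1 with a level of at least 10 in all 4 groups (1109 risen and 1205 fallen), with the authors' log2 fold change, G2 over G1, in B6CASTF1 on the x axis and in C57BL/6J on the y axis. Most points have the same sign in both strains, 87.3% of risen genes (upper right) and 90.1% of fallen genes (lower left).

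The difference between strains itself was tested from the authors' fold changes and SE, with a normal p adjusted by Benjamini-Hochberg over 12517 genes. It passed for 240 genes (1.92%), 130 with a higher log2 fold change in B6CASTF1 and 110 with a lower one, and 57 of the 240 were called in B6CASTF1. With these SE, only 76 of 200 genes given a simulated log2 difference of 4 were called. A gene that did not pass may therefore still differ between strains. Snrpd3 had 2234 in G2 zygotes and 4183 in G1 zygotes of B6CASTF1, and 14364 and 5275 in C57BL/6J (difference of log2 fold changes -2.35, SE 0.52, adjusted p 0.0012). Dppa3 had 434077 in G2 zygotes and 250274 in G1 zygotes of C57BL/6J (log2 fold change 0.79 and adjusted p of 2.5e-05 in the authors' deposited table) and rose there, beside the B6CASTF1 levels given above (difference -0.82, SE 0.21, adjusted p 0.011). Rpl17, which rose in B6CASTF1, did not pass the test in C57BL/6J, where it had 3084 in G2 zygotes and 1961 in G1 zygotes (difference 1.07, SE 0.32, adjusted p 0.044). Each strain was fitted on its own, so strain and any difference between the sets of libraries cannot be told apart.

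Changes between MII eggs and G1 zygotes could be set beside these genes only in C57BL/6J. Of 12627 genes tested in both comparisons, 218 rose (1.73%) and 142 fell (1.12%) in C57BL/6J G1 zygotes against MII eggs, with a median log2 fold change of -0.07. Genes that fell in B6CASTF1 G2 zygotes mostly had a negative log2 fold change at this earlier step: of 1339 tested, 30 fell and 0 rose by the authors' DESeq2 test (135 lower and 5 higher at an unadjusted p under 0.05), 82.4% were below 0 (53.3% of all genes), and the median was -0.46. Genes that rose in B6CASTF1 G2 zygotes had a median of 0.62 at that earlier step, and of 1304 tested 135 rose and 20 fell. Mos had 15632 in MII eggs, 1458 in G1 zygotes and 171 in G2 zygotes of C57BL/6J, and Gdf9 had 83545, 25963 and 2958. Arg2 had 139 in MII eggs, 986 in G1 zygotes and 2826 in G2 zygotes, and Uck2 145, 876 and 2830.3.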

How the data were processed

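Poly(A) RNA was measured in batches of 10 to 15 mouse eggs or embryos by Smart-seq2 with oligo-dT priming, per the labels' protocols. Per the submitters' processing notes the authors named the build mm10 and the tools kallisto, TopHat, Picard, bcl2fastq and DESeq2, with no role for each, so which of them counted reads is unknown here. The authors' file names carry DESeq2 1.18.1. The deposited tables hold, per the file headers, each gene's mean normalized count and its log2 fold change (plain and shrunken) with an SE. The authors also deposited a test score, the fold change over its SE, and a p-value, raw and adjusted. Each strain was fitted on its own, since its mean counts are identical in its tables. A table column per sample was not used here, so library depths are unknown and the authors' SE is the only measure of precision.

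Of 24411 gene symbols in the B6CASTF1 table, 5281 had a mean of 0, 78 others had no p-value, 4384 were removed by the authors' filter on low means, and 14668 were tested, the lowest with a mean of 9.75. In C57BL/6J 1834 genes above 0 had no p-value. The level of each stage was computed from the mean count and both fold changes of B6CASTF1, weighted by 3 G1, 3 G2 and 2 2-cell samples. For the 2-cell samples, the SE against G2 zygotes was at the median 1.12 times the zygote SE in 1460 genes with a level of at least 1000 at each stage, and 1.12 is the ratio for 2 samples against 3.

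Named genes were the 12 highest and 12 lowest log2 fold changes and the 6 smallest p in each direction, among called genes with a mean of at least 100, a level of at least 10 in both stages and no predicted-gene symbol. The 4 tested members of each gene list with the smallest p were also named, as were Nr5a2, Dux, Zscan4d, Zfp352, Mos, Gdf9, Btg4, Dppa3, Tet3, H1foo, Ccnb1, Cdc25a, Plk1, Obox5 and Dppa2. Some genes that this rule names are not reported here. The comparison and the lists were chosen with earlier results of these data known, so a list is described by its counts and median and was not tested. Transcript features and 3' ends came from GENCODE M21, 1 coding transcript per gene, found for 92.6% of genes with a mean of at least 100. For strains, B6CASTF1 minus C57BL/6J fold changes were divided by the root of the summed squared SE, a step tested on simulated data: of 200 genes given a log2 difference of 4 with the real SE, 76 were called, and 3 of the others among 12517 genes. Computations ran in Python 3.11.15 with pandas 2.3.3, numpy 2.4.6, matplotlib 3.10.9 and scipy 1.17.1. Alternatives were a stricter threshold, Bonferroni, minimum mean counts, a minimum fold, a larger SE, recentring, and leaving out predicted genes.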

Additional observations from a re-analysis of the deposited data

Results flagged for a closer look

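A test of the difference between strains passed for 240 of 12517 genes in the G2 against G1 step, and each value below is the B6CASTF1 log2 fold change minus that of C57BL/6J. Dppa3, an oocyte factor that protects maternal methylation, differed by -0.82 (adjusted p 0.011). It did not pass the G2 against G1 test in B6CASTF1 and rose in C57BL/6J. Rpl17, a ribosomal protein gene, differed by 1.07 (adjusted p 0.044). Snrpd3, an Sm protein gene, differed by -2.35 (adjusted p 0.0012), and fell in B6CASTF1 but rose in C57BL/6J. Hecw2, a ubiquitin ligase gene, differed by 7.35 (adjusted p 0.027), with 232 in G2 zygotes and 27.8 in G1 zygotes of B6CASTF1, and 13.9 and 274 in C57BL/6J. Fam69b differed by 5.62 (adjusted p 0.01) and stood under 1 in G2 zygotes of C57BL/6J, where a fold has no meaning. Epcam, an epithelial adhesion gene in the oviduct marker list, differed by 3.46 (adjusted p 0.026), with 77.8 in G2 zygotes and 72.2 in G1 zygotes of B6CASTF1, and 4.83 and 49.1 in C57BL/6J.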

How the results depend on the processing

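The calls rest on 1 table per strain. Bonferroni adjustment left 439 risen and 425 fallen genes, and an SE raised 1.5 times left 511 and 488, against 1413 each. A minimum absolute log2 fold change of 1 left 1053 risen and 732 fallen genes. Other alternatives (a threshold of 0.01, minimum means of 10 and 100, predicted genes left out, Benjamini-Hochberg over every p-value, a level of at least 10 in both stages) moved either count by less than 1.5 times, with 1000 to 1413 risen and 974 to 1413 fallen. Recentring on the median of genes with a mean of at least 100, a shift of 0.06 on the log2 scale, gave 1529 risen and 1252 fallen genes, so risen genes made up 55.0% of calls, against 50%. The strain difference passed for 121 genes at 0.01, 30 with the SE raised 1.5 times, 105 with a mean of at least 100 in both strains and 228 after recentring, against 240. Of 164 named genes, none that passed the test before or after recentring changed sign. Under Bonferroni 37 no longer passed, and under the larger SE 32. Median log2 fold changes of the lists moved by less than the median SE of their members under the shrunken fold change, a minimum mean of 100 and recentring. Levels computed for 3 instead of 2 2-cell samples moved by more than the gene's SE for 74 of 328 values. In the last 50 instead of 100 bases, a window added after the data were seen, the CPE motif was in 7.57% of risen and 18.6% of fallen genes and the reversed letters in 7.18% of risen and 16.6% of fallen genes. No paired analysis was possible because per-sample values are not among the tables analysed here, and leaving out single replicates was not run for the same reason. With unknown depth, a gene that misses the threshold at low counts was not detectably changed, which does not show that it was unchanged.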

Other observations

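Several genes that fell in G2 zygotes had a high level again in 2-cell embryos of B6CASTF1, and are given here as values chosen after they were seen and without a test, since both comparisons share the G2 samples. Tmem59 had 6508 in G1 zygotes, 557 in G2 zygotes and 7921 in 2-cell embryos, and Prim2 had 2706, 407 and 2659. U2af1 had 1851, 474 and 4585, and Trim28 1650.3, 321 and 3537. Med20 and Med11 followed the same order, with 1594, 254 and 2505 for Med20 and 1431, 261 and 2293 for Med11. Other fallen genes were lower still in 2-cell embryos: H1foo had 206243, 18493 and 1068, and Mos had 6179.8, 369 and 49.3.

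Some risen genes had their highest level of the 3 stages in G2 zygotes. Ccdc82 had 168646 in G1 zygotes, 770573 in G2 zygotes and 145414 in 2-cell embryos, Tlcd2 4238, 20816 and 3399, and Nlrp9b 5515, 11584 and 189.6. Zfp57 had 13679, 28816 and 846, and Ooep 4922, 11840.5 and 349. These genes were also chosen after their values were seen.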
